A study of Homo sapiens with 9 samples.

Results

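HSF1, the transcription factor that switches on heat shock genes, and 9 genes for cytosolic chaperones and their partners were followed gene by gene in cells labelled as a neuroblastoma line. The 10 genes were chosen by name out of 22290 genes with values, with earlier results of these same values known. Their levels are therefore given as a description, with no p-value. All 10 had a row in the deposited table, and 0 had a mean level under 5 on its log2 scale.

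The study compared the RNA of cells labelled IMR-32, a human neuroblastoma line labelled as brain, after lowering or raising TRAP1, the mitochondrial member of the HSP90 family. It holds 9 libraries of total RNA in 3 groups of 3. The parental group has the genotype label WT, and the other 2 groups are the TRAP1 knockdown (KD) and TRAP1 overexpression (OE) lines, made in earlier work. All were grown in DMEM with 10% fetal bovine serum. No control line with an empty vector was analysed here, so any effect of making a line cannot be told apart from that of TRAP1. Nothing states that the 3 libraries of a group came from separate cultures, so p-values may measure technical spread alone.

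Levels are rlog values, which the authors put on a log2 scale, corrected for library size and shrank toward the mean of each gene. Differences between groups are therefore understated, more so at low levels. The study's methods state a coverage for the sequencing as a whole, but the table holds no counts, so the depth of each library is unknown. All 22290 genes were fitted with limma and called at a Benjamini-Hochberg adjusted p under 0.05; for the 10 genes the calls are only counted, and no p-value of theirs is read as a test.

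TRAP1 (ENSG00000126602) went against the labels. Its rlog value was 10.67, 10.66 and 10.65 in the parental libraries, 10.79, 10.79 and 10.83 in the libraries labelled KD and 10.67, 10.63 and 10.74 in those labelled OE. The libraries labelled KD were all above the parental ones, by 0.14 (SE 0.025, limma adjusted p = 1.76e-05), and those labelled OE overlapped them (difference 0.018, SE 0.025, limma adjusted p = 0.643). That last difference was −0.01 without OE replicate 3 and 0.04 without OE replicate 2, so its sign and size rest on single libraries. Other annotated genes overlap 28.5% of the exonic bases of TRAP1. The groups are therefore named below by their labels, and no difference is read as an effect of less or more TRAP1.

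Markers of the labelled cell type were mixed in level. Of 16 adrenergic neuroblastoma markers, 10 had values and 5 of these had a mean under 5, a level that 37.2% of all genes did not reach. MYCN had a mean rlog of 2.54, TH of 2.73 and PHOX2A of 1.34, whereas ISL1, the most abundant, had 9.30, GATA2 9.20, GATA3 7.27, HAND2 6.34 and CHGB 5.77, beside a median of 7.05 over all genes. Some markers of other cell types were far above that median, with means of 16.26 for CD74, 15.89 for VIM, 12.86 for YAP1 and 12.04 for KRT18. Others were low, with means of 2.58 for EPCAM, 1.46 for KRT5, 4.18 for COL1A1 and 2.65 for PTPRC. A mean under 5 was found for 4 of 11 mesenchymal, 5 of 11 epithelial and 3 of 4 leukocyte markers with values. These levels put the identity of the cells in doubt, although the study's methods state that the line was authenticated. The identity is not settled here, and every level below is that of the cells as deposited. The summed level of a list is 2 to the power of rlog, added over its genes. For the adrenergic list it was 1629, 1590 and 1602 in the parental libraries, 1479, 1462 and 1499 in those labelled KD, and 1496, 1582 and 1544 in those labelled OE.

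Other marker lists also differed between the groups. Of 11 mesenchymal markers, 4 had a mean under 5 and VIM was the most abundant. Their summed level was 82029, 81855 and 81908 in the parental libraries, 94985, 95610 and 94733 in those labelled KD, and 97718, 96696 and 98164 in those labelled OE. Its genes did not move alike: the mean of VIM was 15.72, 16.09 and 15.87 in the parental, KD and OE groups, that of FN1 13.97, 13.01 and 14.52, and that of PRRX1 11.70, 12.99 and 12.39. The epithelial list (11 of 15 with values, 5 under 5, KRT18 the most abundant) summed to 6906, 6917 and 6851, then 7107, 7298 and 7352, then 6245, 6202 and 6237 in the same order of groups. Nor did its genes move alike: the mean of KRT8 was 8.70, 9.09 and 9.10 in that order, and that of KRT7 5.54, 5.26 and 5.46. The leukocyte list (4 of 5 with values, 3 under 5, CD74 the most abundant, PTPRC at 2.65) summed to 77189, 77309 and 77508, then 83819, 86053 and 86450, then 72988, 73668 and 73608. The part of these lists in the chaperone differences was not tested.

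HSP70 proteins bind exposed hydrophobic stretches of unfolded proteins and release them in a cycle driven by ATP. J-domain proteins (HSP40) bring them clients and speed the hydrolysis of ATP, HSP110 and BAG proteins exchange the nucleotide, and small heat shock proteins hold unfolded clients without using ATP. Some of these genes are expressed in unstressed cells as housekeeping, whereas others are strongly induced when HSF1 trimers bind heat shock elements, repeats of a short unit in alternating orientation. Which genes are called constitutive or heat-inducible below was set by hand and was not measured here.

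Levels of 8 of the 10 genes were ordered parental, then OE, then KD, from high to low, with no overlap between any pair of groups: HSF1, HSPA8, HSPA4, STIP1, HSPH1, DNAJB1, DNAJA1 and CHORDC1. Over all genes, 1732 of 22290 (7.77%) had this order with no overlap; the 10 were chosen with their values known, so nothing is read from the count. BAG3 had the order KD, parental, OE (2.96% of all genes, with no overlap), and the groups of HSPB1 overlapped. The lower levels in the libraries labelled KD were largest for CHORDC1 and HSPH1, 2 of the genes classed as heat-inducible. Since these are bulk samples, fewer cells of a type and less RNA per cell cannot be told apart.

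**Figure D1:**
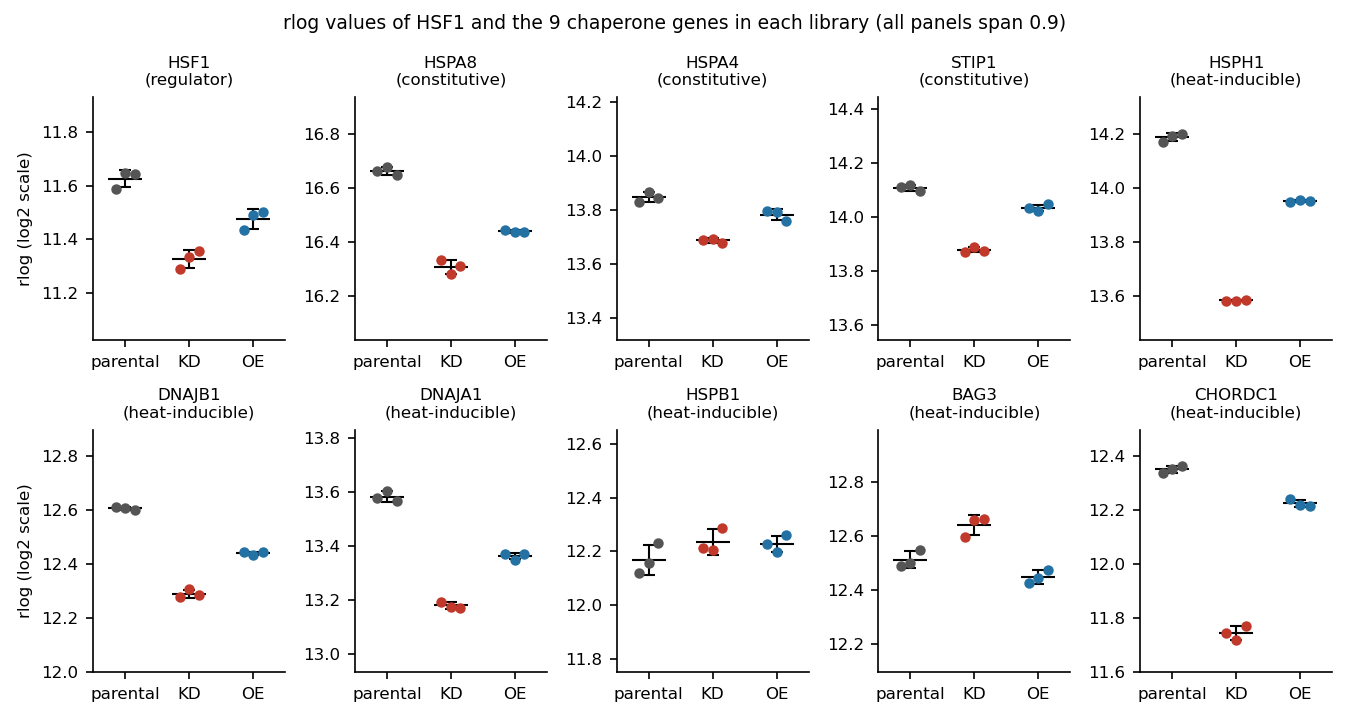
The rlog value (log2 scale, vertical axis) of each of the 10 genes in each of the 9 libraries, by group, with the mean and SD of each group (n = 3) as lines; every panel spans the same range. In 8 panels the libraries labelled KD are lowest and the parental ones highest, BAG3 is highest in the libraries labelled KD, and the groups of HSPB1 overlap.

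HSF1 (ENSG00000185122, chr8:144291591-144314720, plus strand, GRCh38) encodes the regulator itself. Its rlog value was 11.59, 11.65 and 11.64 in the parental libraries, 11.29, 11.33 and 11.36 in those labelled KD, and 11.43, 11.49 and 11.50 in those labelled OE. The 3 groups did not overlap, with the OE label between the other 2. The libraries labelled KD were lower than parental by a mean difference of −0.30 (SE 0.023, n = 3 against 3), those labelled OE differed from parental by −0.15 and from KD by 0.15.

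The median gene near HSF1 was also lower. The median difference of the 63 genes with a mean of at least 8 in its block of 20 Mb (140 to 160 Mb) was −0.23 in the libraries labelled KD and −0.07 in those labelled OE. The block is a fixed window that the end of the chromosome cuts short, so it covers less than 20 Mb. Less that median, a form of adjustment chosen after seeing the data, HSF1 differed from parental by −0.07 in the libraries labelled KD and by −0.08 in those labelled OE, and OE minus KD turned from 0.15 to −0.0062. With block medians over all genes, the same 3 differences were −0.15, −0.10 and 0.05.

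The genes classed as constitutive serve folding in unstressed cells. HSPA8 (ENSG00000109971, chr11:123057489-123063230, minus strand), the housekeeping HSP70, had rlog values of 16.66, 16.68 and 16.65 in the parental libraries, 16.33, 16.28 and 16.31 in those labelled KD, and 16.45, 16.44 and 16.44 in those labelled OE. No library of either labelled group reached the parental level. The difference from parental was −0.35 (SE 0.0096) for the KD label and −0.22 for the OE label. The annotation lists 17 pseudogenes of HSPA8 and other genes overlap 15.1% of its exonic bases.

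HSPA4 (ENSG00000170606, chr5:133052013-133106449, plus strand), an HSP110 protein that exchanges the nucleotide of HSP70, ranged from 13.83 to 13.87 in the parental libraries, from 13.68 to 13.70 in those labelled KD and from 13.76 to 13.80 in those labelled OE. STIP1 (ENSG00000168439, chr11:64185272-64204543, plus strand), which bridges HSP70 and HSP90, ranged from 14.10 to 14.12, from 13.87 to 13.89 and from 14.02 to 14.05 in the same groups. Both genes were lowest in the libraries labelled KD. HSPA4 differed from parental by −0.16 (SE 0.014) in those libraries and by −0.07 in those labelled OE, and STIP1 by −0.23 (SE 0.012) and −0.07, the latter −0.04 once the median of its block was subtracted. The median difference of the 3 constitutive genes was −0.23 for the KD label and −0.07 for the OE label.

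Among the 6 heat-inducible genes, HSPH1 (ENSG00000120694, chr13:31134973-31162388, minus strand), the inducible HSP110, had rlog values of 14.17, 14.19 and 14.20 in the parental libraries, 13.58, 13.58 and 13.59 in those labelled KD, and 13.95, 13.96 and 13.95 in those labelled OE. The 3 groups were separated by far more than their largest SD, 0.015. The difference from parental was −0.60 (SE 0.012) for the KD label and −0.24 for the OE label.

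CHORDC1 (ENSG00000110172, chr11:90200429-90223077, minus strand), a partner of HSP90, had rlog values of 12.34, 12.35 and 12.36 in the parental libraries, 11.74, 11.72 and 11.77 in those labelled KD, and 12.24, 12.22 and 12.21 in those labelled OE. The libraries labelled KD stood apart from the other 2 groups, which were closer together. The difference from parental was −0.61 (SE 0.018) for the KD label and −0.13 for the OE label, and OE minus KD was 0.48, the widest of the 10 genes.

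The J-domain genes DNAJA1 and DNAJB1, which recruit clients to HSP70, also had the order parental, OE, KD. DNAJA1 (ENSG00000086061, chr9:33025273-33039907, plus strand) had rlog values of 13.58, 13.60 and 13.56 in the parental libraries, 13.19, 13.17 and 13.17 in those labelled KD, and 13.37, 13.35 and 13.37 in those labelled OE. DNAJB1 (ENSG00000132002, chr19:14514769-14560391, minus strand) had 12.61, 12.61 and 12.60 in the parental libraries, 12.28, 12.31 and 12.28 in those labelled KD, and 12.44, 12.43 and 12.44 in those labelled OE. No pair of groups overlapped for either gene. DNAJA1 differed from parental by −0.40 (SE 0.014) for the KD label and −0.22 for the OE label, the latter −0.11 less the median of its block, and OE minus KD went from 0.18 to 0.32. DNAJB1 differed by −0.32 (SE 0.016) and −0.17.

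BAG3 and HSPB1 did not share this order. BAG3 (ENSG00000151929, chr10:119651380-119677819, plus strand), a nucleotide exchange factor that links HSP70 to small heat shock proteins and to autophagy, had rlog values of 12.49, 12.50 and 12.55 in the parental libraries, 12.60, 12.66 and 12.66 in those labelled KD, and 12.42, 12.44 and 12.47 in those labelled OE. It was highest in the libraries labelled KD, by 0.13 over parental (SE 0.019), and lowest in those labelled OE, by −0.06 (SE 0.019). HSPB1 (ENSG00000106211, chr7:76302673-76304295, plus strand), the small heat shock protein HSP27, had 12.12, 12.16 and 12.23 in the parental libraries, 12.21, 12.20 and 12.29 in those labelled KD, and 12.23, 12.20 and 12.26 in those labelled OE. Its 3 groups overlapped, and its differences of 0.07 and 0.06 from parental (SE 0.023) were close to the parental SD of 0.057. Over the 6 heat-inducible genes the median difference was −0.36 for the KD label, between −0.61 and 0.13, and −0.15 for the OE label, between −0.24 and 0.06.

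Promoters were searched for the heat shock element. RefSeq windows of 300 bases around the start site (GRCh38.p14) were found for 9 of the 10 genes, all but HSF1. The element was written as 3 units, GAANNTTCNNGAA or TTCNNGAANNTTC; each is the reverse complement of the other, so both strands are covered, and matches may overlap. It was found in 172 of 35116 promoters (0.490%). Counted by gene, with a match in any window of the gene, 166 of 27305 genes (0.608%) held it, and 3 of the 9, CHORDC1, HSPA8 and DNAJA1. With 2 units in place of 3, 16.2% of all genes (13.5% of promoters) and 6 of the 9 held a match. The promoters of those 3 genes, and that of BAG3, which was higher in the libraries labelled KD with no overlap, are shown 5′ to 3′; they were chosen after values and matches were seen. Capitals mark the element with 3 units. CHORDC1 (chr11:90223000-90223299, minus strand) has 3 overlapping matches between bases 191 and 213 of the window, HSPA8 (chr11:123062087-123062386, minus strand) has 1 at bases 21 to 33 and 1 at bases 196 to 208, DNAJA1 (chr9:33025023-33025322, plus strand) has 1 at bases 254 to 266, and the window of BAG3 (chr10:119651130-119651429, plus strand) holds none.
CHORDC1: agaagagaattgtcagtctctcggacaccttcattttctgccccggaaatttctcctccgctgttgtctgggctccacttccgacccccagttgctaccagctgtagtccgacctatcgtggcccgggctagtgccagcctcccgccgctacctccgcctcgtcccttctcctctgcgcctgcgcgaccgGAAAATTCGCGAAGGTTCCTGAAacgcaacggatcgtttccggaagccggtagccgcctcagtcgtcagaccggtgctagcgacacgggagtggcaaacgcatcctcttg
HSPA8: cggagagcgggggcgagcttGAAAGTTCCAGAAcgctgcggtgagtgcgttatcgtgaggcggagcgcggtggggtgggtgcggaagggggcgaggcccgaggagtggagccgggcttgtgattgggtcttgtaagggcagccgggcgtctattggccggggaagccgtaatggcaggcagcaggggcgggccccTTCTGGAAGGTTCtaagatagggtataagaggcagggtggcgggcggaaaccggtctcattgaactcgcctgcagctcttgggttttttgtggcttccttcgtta
DNAJA1: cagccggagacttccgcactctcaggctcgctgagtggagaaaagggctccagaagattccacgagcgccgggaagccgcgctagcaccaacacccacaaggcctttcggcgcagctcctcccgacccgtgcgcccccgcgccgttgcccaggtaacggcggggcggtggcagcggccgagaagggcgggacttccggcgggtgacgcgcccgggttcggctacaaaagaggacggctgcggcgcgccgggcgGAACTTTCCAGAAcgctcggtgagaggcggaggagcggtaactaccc
BAG3: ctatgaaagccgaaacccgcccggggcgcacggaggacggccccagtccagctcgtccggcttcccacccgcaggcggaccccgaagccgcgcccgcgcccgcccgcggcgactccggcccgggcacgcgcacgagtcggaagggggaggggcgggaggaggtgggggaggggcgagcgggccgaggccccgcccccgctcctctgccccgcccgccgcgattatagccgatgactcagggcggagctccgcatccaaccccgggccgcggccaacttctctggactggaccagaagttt

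A match is a description of letters, not a site. For the members with 3 units, the differences from parental in the libraries labelled KD were −0.61 for CHORDC1, −0.35 for HSPA8 and −0.40 for DNAJA1. The element was also found in 3 of 61 other cytosolic chaperone genes (4.92%) and 4 of 17 other heat-induced genes (23.5%), lists that overlap. Those were HSP90AA1 (−0.56), HSPD1 (−0.33), DNAJB6 (−0.32), HSP90AB1 (−0.16) and SERPINH1, which was higher (0.08). A link between the element and the differences was not tested. HSPH1, with a difference of −0.60, has no match with 3 units or with 2 in its window, which says only that these letters are not there.

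In limma's fit, 10 of the 10 genes were called between the libraries labelled KD and parental, 8 lower and 2 higher, where 53.7% of all genes were called, 26.9% lower and 26.9% higher. Their groups did not overlap for 9 genes, as for 59.2% of all genes. Between the OE label and parental, 10 were called, 9 lower and 1 higher, where 34.8% of all genes were called, 18.0% lower and 16.9% higher, and 9 did not overlap, as for 43.2% of all genes. Between OE and KD, 9 were called, 8 higher and 1 lower, where 47.3% of all genes were called, 23.5% higher and 23.8% lower, and 9 did not overlap, as for 54.1% of all genes. Nothing is read from these counts or from how they change, since the 10 genes were chosen with these values known. The 2 comparisons with parental share those libraries. Some of the calls counted here were lost under other settings. That of HSF1 between OE and KD was lost with either form of block median. The call of HSPB1 for the KD label was lost without parental replicate 1 (0.04), parental replicate 2 (0.06) or KD replicate 3 (0.04), and for the OE label without parental replicate 1 (0.04), parental replicate 2 (0.05), KD replicate 2 (0.06), OE replicate 1 (0.06) or OE replicate 3 (0.04). The call of BAG3 for the OE label was lost without parental replicate 3 (−0.05) or OE replicate 1 (−0.05), and with quantile normalization (−0.05). With a constant prior variance, the calls of HSPB1 for both labels and of BAG3 for the OE label were lost at the same differences.

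**Figure D2:**
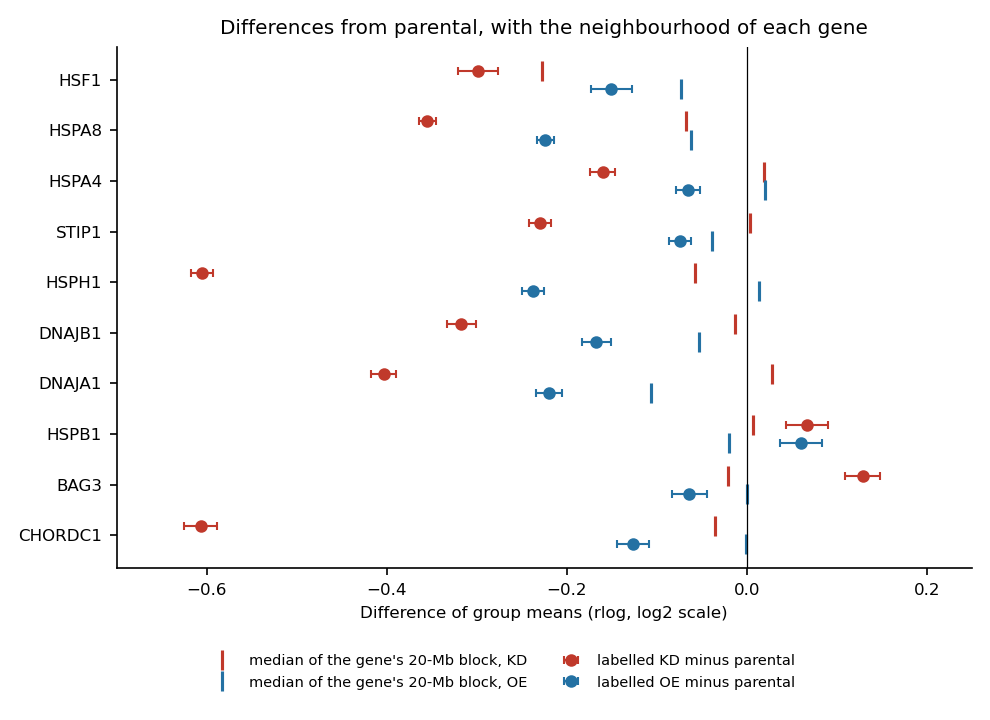
Differences of group means from parental (rlog, log2 scale, horizontal axis) of each gene, as points with the SE (n = 3 against 3), for the libraries labelled KD and OE; the short vertical marks are the medians of the genes with a mean of at least 8 in the same block of 20 Mb. HSF1 lies close to the median of its block in the libraries labelled KD (−0.30 against −0.23), while CHORDC1 (−0.61 against −0.04) and HSPH1 (−0.60 against −0.06) lie far from theirs.

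Levels between genes were compared per kilobase of exon. In the parental libraries the log2 level per kilobase was highest for HSPA8 (14.39 ± 0.016, SD, n = 3), then DNAJA1 (12.17), STIP1 (11.91), HSPA4 (11.51), HSPB1 (11.47), HSPH1 (11.12), BAG3 (11.06), DNAJB1 (9.57), HSF1 (9.22) and CHORDC1 (8.88). HSPA4 and HSPB1 did not differ beyond their spread. With the length of the longest transcript in place of all exons, STIP1 (12.65) came before DNAJA1 (12.37), HSPH1 (11.80) before HSPB1 (11.63) and HSPA4 (11.59), and CHORDC1 (9.93) before HSF1 (9.84), so the order depends on the length used. HSPA8 was first on both lengths, and the regulator HSF1 was among the lowest 2.

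**Figure D3:**
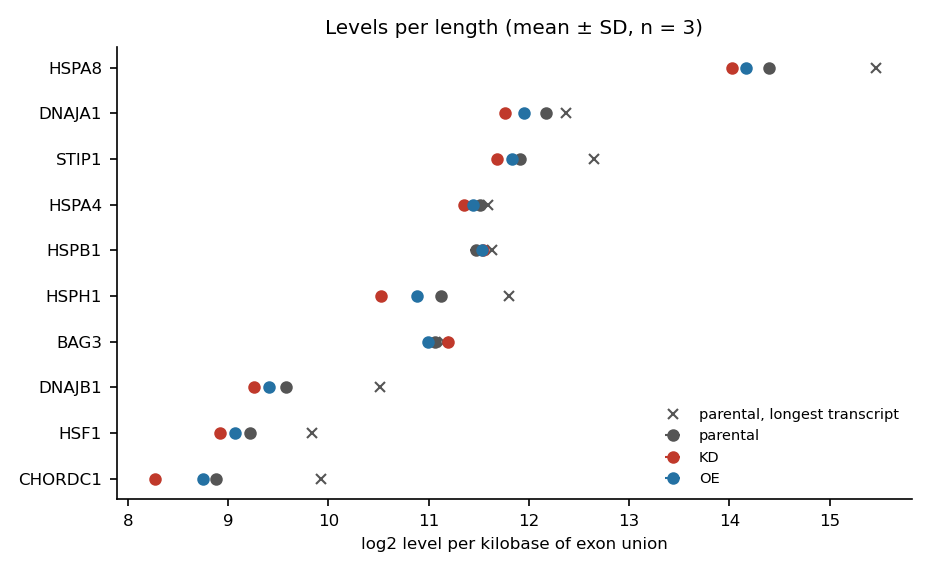
Level of each gene per kilobase of exon (log2 scale, horizontal axis) in each group, mean ± SD of 3 libraries (the SD is smaller than most points), and with the longest transcript as the length in the parental group (crosses). HSPA8 is highest at 14.39 in the parental libraries, and HSPH1 lies above BAG3 in the parental libraries (11.12 and 11.06) but below it in those labelled KD (10.52 and 11.19).

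Genes with the most similar pattern over the 9 libraries were found by the root mean square (RMS) difference of values centred on each gene's own mean. For HSF1 they were CIZ1 (0.0182), DDX31 (0.0195), RBBP9 (0.0225), KEAP1 (0.0234) and UTP3 (0.0255), against an SD of 0.125 of HSF1 itself. For CHORDC1 they were URM1 (0.0181), ARHGAP23 (0.0196), SAMHD1 (0.0215), ST3GAL1 (0.0239) and QSOX2 (0.0247). For HSPH1 they were ARPC5L (0.0167), BICD2 (0.0186), MFSD2A (0.022), PRPF4 (0.0225) and SLC3A2 (0.0229). For DNAJA1 they were MRTO4 (0.0106), TTI1 (0.016), UNG (0.0168), TMEM250 (0.0175) and SNRPB (0.0183). None of these 20 genes is among the 10. Of the 20, 8 lie on chromosome 9 and 4 on chromosome 20, which hold 4.1% and 2.7% of all genes with a position, and 2 on chromosome 1 (10.3%); these counts were made after the names were seen.

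The other cytosolic chaperone genes were taken as a list of 83, of which 72 had values. In the libraries labelled KD, 55 of these 72 were called, 15 higher and 40 lower, beside 53.7% of all genes (26.9% in each direction), with a median difference of −0.11 (all genes −5.07e-04). In those labelled OE, 47 were called, 11 higher and 36 lower, beside 34.8% of all genes (16.9% and 18.0%), with a median of −0.06 (−0.04 with quantile normalization; all genes 3.94e-04). Between OE and KD, 51 were called, 36 higher and 15 lower, beside 47.3% of all genes (23.5% and 23.8%), with a median of 0.06 (all genes 7.76e-04). The lists named below stand beside the same shares of all genes. Every list was chosen with earlier results of these data known. Genes named from the longer lists were picked because they were called with the largest differences. The adjusted p-values given below for genes of the lists, also in the closing sections, are therefore a description and not a test.

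A list of other heat-induced genes, which overlaps the first list, had values for 19 of 22. For the KD label 17 were called (53.7% of all genes), 2 higher and 15 lower, with a median of −0.26. For the OE label 16 were called (34.8% of all genes), 4 higher and 12 lower, with a median of −0.08. Between OE and KD 13 were called (47.3% of all genes), all higher, with a median of 0.12. With quantile normalization or a constant prior variance, 1 gene in place of 2 was higher for the KD label. The largest fall for the KD label was that of HSPA1A, the main stress-induced HSP70. Its rlog value was 11.09, 11.00 and 11.09 in the parental libraries, between 9.95 and 9.998 in those labelled KD, and 10.59, 10.57 and 10.65 in those labelled OE. It fell by 1.08 (SE 0.027, limma adjusted p = 1.17e-25) for the KD label and fell by 0.46 (limma adjusted p = 3.74e-15) for the OE label, in 3 of 3 libraries each. HSPA1B, its near-identical neighbour, fell (−0.998 and −0.50, limma adjusted p = 1.92e-18 and 1.78e-10). Other genes overlap 36.6% of its exonic bases, and how reads that fit both copies were counted is not stated, so the pair may not be separate measurements. In each pair of values from here on, the KD label comes before the OE label. IER5, a target of HSF1, fell (−0.31 and −0.32, limma adjusted p = 4.78e-11 for each label), and HSPD1, the mitochondrial chaperonin with 18 annotated pseudogenes, fell (−0.33 and −0.08, limma adjusted p = 1.75e-23 and 2.14e-07).

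**Figure D4:**
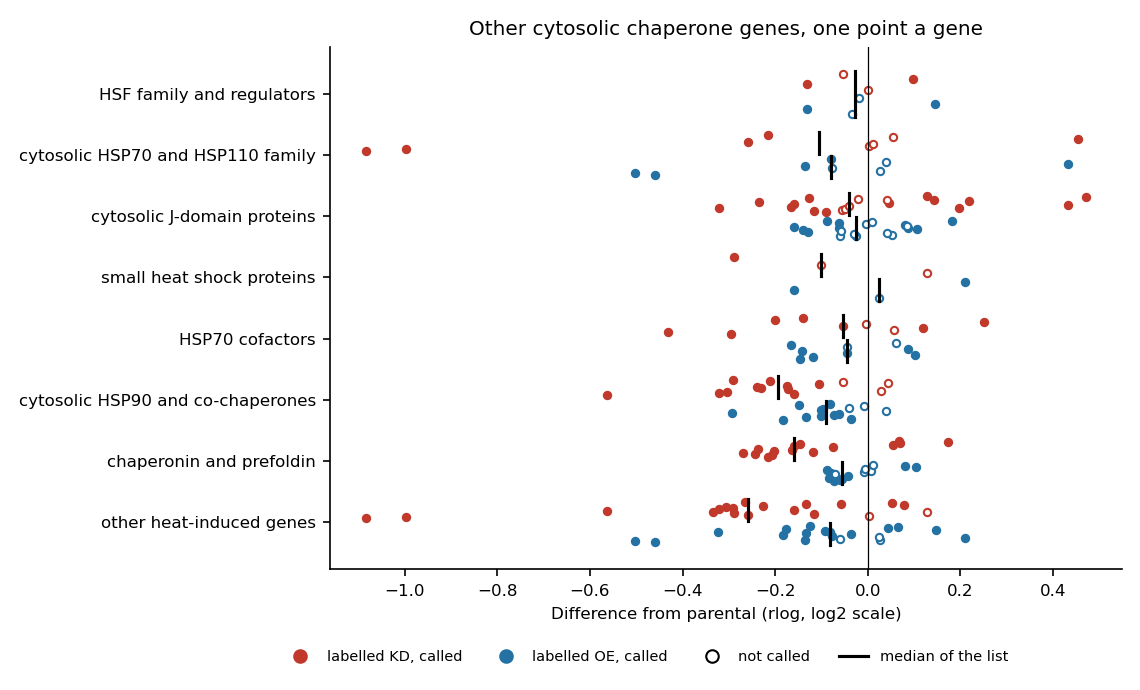
Difference from parental (rlog, log2 scale, horizontal axis) of each gene of the other chaperone lists and of the other heat-induced genes, 1 point a gene, filled where called, with the median of each list as a black line. HSPA1A and HSPA1B lie lowest in the libraries labelled KD, and the median of the HSP90 list lies at −0.19.

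Cytosolic HSP90 and its co-chaperones had 11 of 14 genes called for each label, all lower, with medians of −0.19 (KD) and −0.09 (OE). HSP90AA1, the inducible HSP90, had rlog values of 17.66, 17.68 and 17.66 in the parental libraries, 17.12, 17.09 and 17.09 in those labelled KD, and 17.51, 17.48 and 17.46 in those labelled OE. It fell by 0.56 (limma adjusted p = 3.14e-31) for the KD label. For the OE label it fell by 0.18 (limma adjusted p = 1.5e-17), with no overlap with parental, a difference that was exactly 0 under quantile normalization. That scaling gives every library the same value at a given rank, so a gene that keeps its rank gets a difference of 0. AHSA1, which speeds the ATPase of HSP90, fell (−0.32 and −0.13), CDC37, which brings kinases to HSP90, fell by 0.30 for the KD label, FKBP5, a prolyl isomerase, fell (−0.23 and −0.29), and NUDC fell (−0.21 and −0.15). Under quantile normalization 1 gene of the list was called higher for each label, as was 1 for the KD label without KD replicate 1. The chaperonin and prefoldin list had 15 of 15 called for the KD label (53.7% of all genes), 4 higher and 11 lower (median −0.16), and 10 for the OE label (34.8% of all genes), 2 higher and 8 lower (median −0.06, and −0.03 without OE replicate 2 or with quantile normalization). The 4 higher became 1 less the median of their blocks (genes at 8 or above) and 2 with a constant prior variance. In the libraries labelled KD the chaperonin genes CCT4, CCT3, CCT7 and TCP1 fell (−0.27, −0.24, −0.24 and −0.22), whereas PFDN5 of prefoldin rose by 0.17. PFDN4 rose by 0.07 and 0.11, and PFDN2 rose by 0.05 for the KD label and fell by 0.09 for the OE label. The KD calls of both were lost with a constant prior variance, less the median of their blocks (genes at 8 or above, 0.0073 and 0.03), and without KD replicate 1 (PFDN4, 0.04) or KD replicate 3 (PFDN2, 0.04); that of PFDN4 was also lost with block medians over all genes (0.05).

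Other HSP70 and J-domain genes split in direction. Of 8 HSP70 and HSP110 genes, 1 rose and 4 fell for each label, with medians of −0.11 (KD; −0.22 with only genes at 5 or above) and −0.08 (OE), and HSPA12A, a distant relative of HSP70, rose by 0.45 and 0.43 (limma adjusted p = 2.11e-13 and 2.92e-12). In place of 1, 2 rose for each label less the median of their blocks (genes at 8 or above), as did 2 for the OE label with block medians over all genes and 2 for the KD label with a constant prior variance. Of 19 J-domain genes, 7 rose and 7 fell for the KD label, and 4 rose and 6 fell for the OE label, with medians of −0.04 and −0.02. With only genes at 5 or above these were −0.02 and −0.0035, and that for the OE label was −0.0011 without OE replicate 2 and −0.0095 without parental replicate 1. DNAJC27 rose by 0.47 and 0.18 and DNAJC6, the auxilin that uncoats clathrin vesicles, by 0.43 and 0.11, the latter 0.07 less the median of its block. DNAJB6 fell (−0.32 and −0.13), with 8 annotated pseudogenes, and DNAJC9, a histone chaperone with 56.5% of its exonic bases shared, fell (−0.24 and −0.16).

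HSP70 cofactors (9 with values) had 2 higher and 5 lower for each label, with medians of −0.05 (KD; −0.03 without KD replicate 1) and −0.04 (OE; −0.07 without OE replicate 3), beside 53.7% and 34.8% of all genes called. For the OE label this became 1 higher and 3 lower less the median of their blocks (genes at 8 or above). BAG2 fell (−0.43 and −0.12, 44.2% of its exonic bases shared), and BAG1 fell (−0.30 and −0.15), the latter −0.04 and not called less the median of its block. STUB1, the ubiquitin ligase CHIP, rose by 0.25 for the KD label (42.5% of its exonic bases shared), SGTA fell (−0.20 and −0.17), and HSPBP1 fell by 0.14 for the OE label. Among the small heat shock genes, HSPB8 fell by 0.29 for the KD label (limma adjusted p = 1.0e-05) and rose by 0.21 for the OE label (limma adjusted p = 0.00111). CRYAB differed by 0.13 (limma adjusted p = 0.0699) and 0.02 (between −0.03 and 0.10 with 1 library left out), the former called without KD replicate 1 (0.18) or OE replicate 2 (0.13) or with 2 groups in the fit, and 0.06 without KD replicate 2. HSPB6 differed by −0.10 (limma adjusted p = 0.0656), called without KD replicate 1 (−0.12), with a constant prior variance or with quantile normalization, and fell by 0.16 for the OE label (38.3% of its exonic bases shared). The small heat shock list thus had 1 of 3 called for the KD label (median −0.10, and −0.06 less the median of their blocks) and 2 for the OE label, 1 in each direction (median 0.02, between −0.03 without OE replicate 3 and 0.10 without OE replicate 2). For the KD label 2 were called with quantile normalization, a constant prior variance, 2 groups in the fit or without OE replicate 2, and 3 without KD replicate 1.

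The other HSF family and regulator genes moved in both directions. Of 4 with values, 1 rose and 1 fell for each label, with a median of −0.03 for both (between −0.05 and −0.01 over the settings run for the KD label, and between −0.05 and 0.0030 for the OE label). HSF2 differed by −4.0e-04 (limma adjusted p = 0.992, between −0.01 and 0.01 with 1 library left out) and −0.03 (limma adjusted p = 0.384, but called at −0.08 less the median of its block), and HSBP1L1 by −0.05 and −0.02, neither called; with 1 library left out these were between −0.09 and −0.02 and between −0.05 and 0.03, so the sign of the latter rests on single libraries. Less the median of their blocks 2 of the 4 fell for the OE label. HSF4 fell by 0.13 for both labels, with 27.1% of its exonic bases shared, and HSBP1, which binds HSF1 trimers, rose by 0.10 and 0.15, the latter 0.23 less the median of its block. HSF5, HSPA6, DNAJB7, DNAJB8, HSPB2, HSPB3, CRYAA, HSPB7, HSPB9, BAG5, FKBP4 and HSPE1 were not analysed here.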

How the data were processed

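RNA of 9 libraries (3 per group) was sequenced. After trimming (cutadapt), alignment to GRCh38 (HISAT2) and gene counting (featureCounts, Subread), the authors deposited regularized log2 (rlog) values, with DESeq2 named for the series; versions are not stated, and a coverage is stated for the sequencing as a whole but no count per library. Groups follow the sample labels. Ensembl identifiers were matched to symbols and positions with GENCODE 44 (22195 of 22290 matched). All genes were fitted in limma 3.58.1 (R 4.3.3: lmFit, contrasts.fit, eBayes with a trend) with 3 contrasts; p-values were adjusted by Benjamini-Hochberg over all genes and called under 0.05. The code was tested on simulated data. Tables and plots used Python 3.11.15, numpy 2.4.6, pandas 2.3.3 and matplotlib 3.10.9. The members and gene lists were chosen with earlier results of these data known. Genes named from a list were the whole list where 6 or fewer had values, otherwise the 4 called genes with the largest absolute difference in each comparison with parental; not every value of each is printed. Likeness took 5 genes for HSF1 and for the 3 members with the widest range of group means. Lists of endoplasmic reticulum and mitochondrial chaperones and of immediate early genes are given among the other observations. Alternatives were no variance trend, a mean of at least 5, replicate number as a block, quantile normalization, subtraction of 20-Mb block medians, only the 2 groups compared, each library left out, 2 units of the element, and the longest transcript; block medians over genes with a mean of at least 8, in blocks with 10 or more, were added after seeing the data.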

Additional observations from a re-analysis of the deposited data

How the results depend on the processing

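The counts of called genes among all genes, the members, the other cytosolic chaperone list and the other heat-induced genes stayed within 1.5 times under every setting run. Of the smaller lists, the total called moved further for the HSP70 cofactors (OE label, 7 to 4 with block medians of genes at 8 or above) and the small heat shock genes (KD label, 1 to 2 or 3). Over all settings 9 to 10 of the members were called for the KD label, 8 to 10 for the OE label and 8 to 9 between OE and KD, which is also the range with 1 library left out for KD and OE (9 for OE against KD). For the other cytosolic chaperone list the ranges were 52 to 56, 41 to 49 and 48 to 51, for the other heat-induced genes 16 to 18, 13 to 16 and 12 to 14, and for all genes 10189 to 13055, 6857 to 8472 and 9171 to 11916. With the replicate block, 12015, 7854 and 10623 of all genes were called, against 11980, 7764 and 10552, and 10, 10 and 9 members; deviations from the group mean correlated at −0.0458 to 0.1 between libraries of different groups with the same number and −0.101 to 0.0572 between those of different groups with other numbers, 2 ranges that overlap, so no pairing by number was seen. Of 160 values of the members in each comparison, 156 (KD), 150 (OE) and 153 (OE against KD) kept direction and call, as did 768 (KD) and 778 (OE) of 800 values of other named genes; 0, 0 and 6 values of members and 10 and 6 of the others changed sign or were 0. Over all settings the median of a list moved by more than 1.5 times or changed sign for 6 of 13 lists (KD) and 8 of 13 (OE). The 3 other scalings kept the sign of the median of each gene list, except for the mitochondrial list under the OE label (1.49e-04 with block medians of genes at 8 or above). With 20-Mb block medians removed that used only genes at 8 or above, chosen after seeing the data, HSF1 turned to −0.0062 (OE against KD) and HSPA5 to 0.0074 (KD), both by subtraction of the median of the block, TRAP1 was called at 0.07 for the OE label, and OE against KD for TRAP1 was −0.06. The median difference of all genes was between −0.00188 and 0.00865 under every scaling. Unknown depth limits the precision at low levels.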

Other observations

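Chaperones of other compartments moved in both directions. Of 18 endoplasmic reticulum chaperones, 10 rose and 4 fell in the libraries labelled KD (median difference 0.06), and 6 rose and 6 fell in those labelled OE (median 0.03, 0.0065 with quantile normalization and 0.02 without OE replicate 3), beside 53.7% and 34.8% of all genes called. In place of 6, 3 fell for the OE label with quantile normalization or without parental replicate 1. HSP90B1, the HSP90 of that compartment, rose by 0.28 and 0.15 for the KD and OE labels (limma adjusted p = 5.75e-18 and 1.09e-10), PDIA6 by 0.15 for each label and PDIA3, a disulfide isomerase, by 0.08 and 0.13. HSPA5, the HSP70 of the compartment, fell (−0.34 and −0.11), MANF fell by 0.31 for the KD label, and DNAJB11 rose by 0.28 for the KD label. With the median of each gene's 20-Mb block over all genes subtracted, HSPA5 differed by −0.10 and −0.06 and MANF by −0.11 for the KD label, all still called. With that median taken over genes at 8 or above, chosen after seeing the data, 2 of the list fell for the KD label in place of 4. HSPA5 then differed by 0.0074 and −0.01, and MANF by −0.0020 and DNAJB11 by 0.05 for the KD label, none of them called. Of 11 mitochondrial chaperones, 3 rose and 5 fell for the KD label (median −0.05, −0.0074 without KD replicate 1, −0.03 without parental replicate 3 and −0.09 with the same subtraction). For the OE label 2 rose and 4 fell (median −0.03, 1.49e-04 with the same subtraction, 0.01 without parental replicate 3 and −0.02 with block medians over all genes). HSPA9, the mitochondrial HSP70, fell by 0.22, and its exchange factor GRPEL1 fell by 0.19 for the KD label. For the OE label CLPB and DNAJA3 fell (−0.11 and −0.09), and CLPX and LONP1 rose by 0.08 each. Less the block medians of genes at 8 or above, DNAJA3 differed by −0.04 and was not called, and CLPB and LONP1 differed by −0.07 and 0.14.

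Immediate early genes, which growth signals induce rapidly, also differed between the groups, with 10 of 13 having values. For the KD label 3 rose and 7 fell (median −0.28), where 53.7% of all genes were called, 26.9% in each direction. For the OE label 1 rose and 6 fell (median −0.17), where 34.8% of all genes were called, 16.9% higher and 18.0% lower. FOS rose by 1.13 and 0.46 (limma adjusted p = 1.65e-24 and 1.14e-13) and EGR1 by 0.85 for the KD label, whereas ATF3 fell (−1.12 and −0.44), FOSL1 fell (−0.72 and −0.52), and EGR2 fell (−0.30 and −0.53). FOSB, JUNB and DUSP1 were not analysed here.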
